A study of Mus musculus with 7 samples.

Results

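The 37 genes described here encode the enzymes and carriers that break down glucose: the glucose and lactate transporters, the steps of glycolysis with their paralogs, the pyruvate dehydrogenase branch point, the pentose phosphate pathway, and Hif1a, a transcription factor that acts on many of them. They were chosen by name, as the rows of the deposited table whose Ensembl ID maps to those mouse symbols, and all 37 were found among the 39179 IDs of the table. The cells were LSK cells, the bone marrow fraction without lineage markers and with Sca-1 and Kit, which holds the blood stem cells and multipotent progenitors. They were sorted by flow cytometry from C57/BL6 mice aged 7 weeks. The 3 Jmjd1c libraries are labelled Jmjd1c f/f Vav1Cre: Cre driven from Vav1 regulatory sequence, active across the blood lineages, acts there on floxed Jmjd1c. The 4 control libraries are labelled Vav1Cre, so both groups carried the transgene. JMJD1C belongs to the KDM3 family of JmjC-domain proteins that act on lysine 9 of histone H3. No label ties a library to an animal of its own, so the p-values below describe the spread among 7 libraries, part of which could be technical.

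Glycolysis turns glucose into pyruvate in the cytosol and yields a small amount of ATP. Pyruvate is then reduced to lactate by lactate dehydrogenase, or enters the mitochondrion and is oxidized by the pyruvate dehydrogenase complex, which pyruvate dehydrogenase kinases switch off. The pentose phosphate pathway leaves glycolysis at glucose 6-phosphate and supplies NADPH and the ribose of nucleotides. Quiescent blood stem cells are known to lean on glycolysis, with HIF-1 and the pyruvate dehydrogenase kinases as regulators, and to turn to mitochondrial oxidation as they divide and differentiate.

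Values are the authors' normalized read counts, that is, reads per gene scaled by each library's size factor. Recovered reads assigned to genes ranged from 4416762 to 6253793 in the Jmjd1c libraries and from 4303712 to 6436519 in the control libraries. Jmjd1c itself stood at 264 ± 26.3 normalized read counts in the Jmjd1c libraries (SD, n = 3) and at 488 ± 30.4 in the control libraries (SD, n = 4), and it fell by 0.89 ± 0.09 on the log2 scale (limma, adjusted p = 0.00407). Its reads were counted over all exons, so the value does not measure how much function was lost. All 12 markers of the LSK population had reads in every library, and their summed level was 27447 to 31031 in Jmjd1c and 26618 to 30669 in control libraries. Transcripts of other cell types were present in both groups. The 5 basophil and mast cell markers summed to 2151 to 4564 in Jmjd1c and 5605 to 8679 in control libraries, and Prss34 among them was called as lower. The 6 B cell markers summed to 382 to 399.7 in Jmjd1c and 442 to 512 in control libraries, also without overlap, with 0 called. The 11 macrophage markers reached 10231 in control 4, against 2156 to 3996 in Jmjd1c and 2387 to 3504 in the other control libraries, and the 7 plasma cell markers ran from 9956 to 30195 in Jmjd1c, highest in Jmjd1c 3, and from 18951 to 29058 in control libraries, and Igha among them was called as lower. Jmjd1c 3 also had 2767 normalized read counts of Xist, the RNA of the inactive X chromosome, and no read of 4 Y-linked genes. In the other 6 libraries Xist was 4.14 to 9.32 and the Y-linked genes were all present. In bulk RNA fewer cells of a type and less RNA per cell cannot be told apart.

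No member passed the threshold over all genes. In limma on log2(value + 1), with Jmjd1c against control and p-values adjusted over 12813 tested genes, 231 genes, or 1.8%, had an adjusted p under 0.05, 1.51% as higher and 0.289% as lower in Jmjd1c. Among the 37 members, all of which were tested, the count was 0, and the smallest adjusted p was 0.0538, shared by Hk1 and Pdk1. At an unadjusted p under 0.05 there were 8 members, 5 higher and 3 lower in Jmjd1c, which is 21.6% of the members against 19.7% of all tested genes (11.9% higher and 7.84% lower). The groups did not overlap for 8 members, 6 higher and 2 lower, again 21.6%, against 16.8% of all tested genes (9.74% higher and 7.1% lower). Both shares lie near those of the whole table. edgeR on the recovered reads also called 0 members, with 8 at an unadjusted p under 0.05, where it called 1.82% of all genes and 19.4% had such a p. DESeq2 called 5 members, namely Hk1, Pfkl, Pdk1 and Pgls as higher and Ldhb as lower, where it called 4.6% of all genes. At an adjusted p under 0.1 limma called 5 members, the same 5 genes, and 5.59% of all genes. Hk1 and Pdk1 also passed 0.05 without a filter on low values, where 1.3% of all genes did, and with a minimum of 50, where 2.83% did. Hk1 alone passed with array weights, where 2.51% of all genes did.

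The members' log2 fold changes had a median of 0.02, against -0.01 for all tested genes, and ran from -0.44 for Pfkfb4 to 0.66 for Pdk1. Of the 37, 21 were positive and 16 negative. For 28 members, or 75.7%, the 95% interval of the fold change in limma stayed within 1.5-fold in either direction, against 62.3% of all tested genes. Summed over the 37 genes, the members took 0.917% to 0.919% of all values in the Jmjd1c libraries and 0.864% to 0.913% in the control libraries, lowest in control 4.

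**Figure D1:**
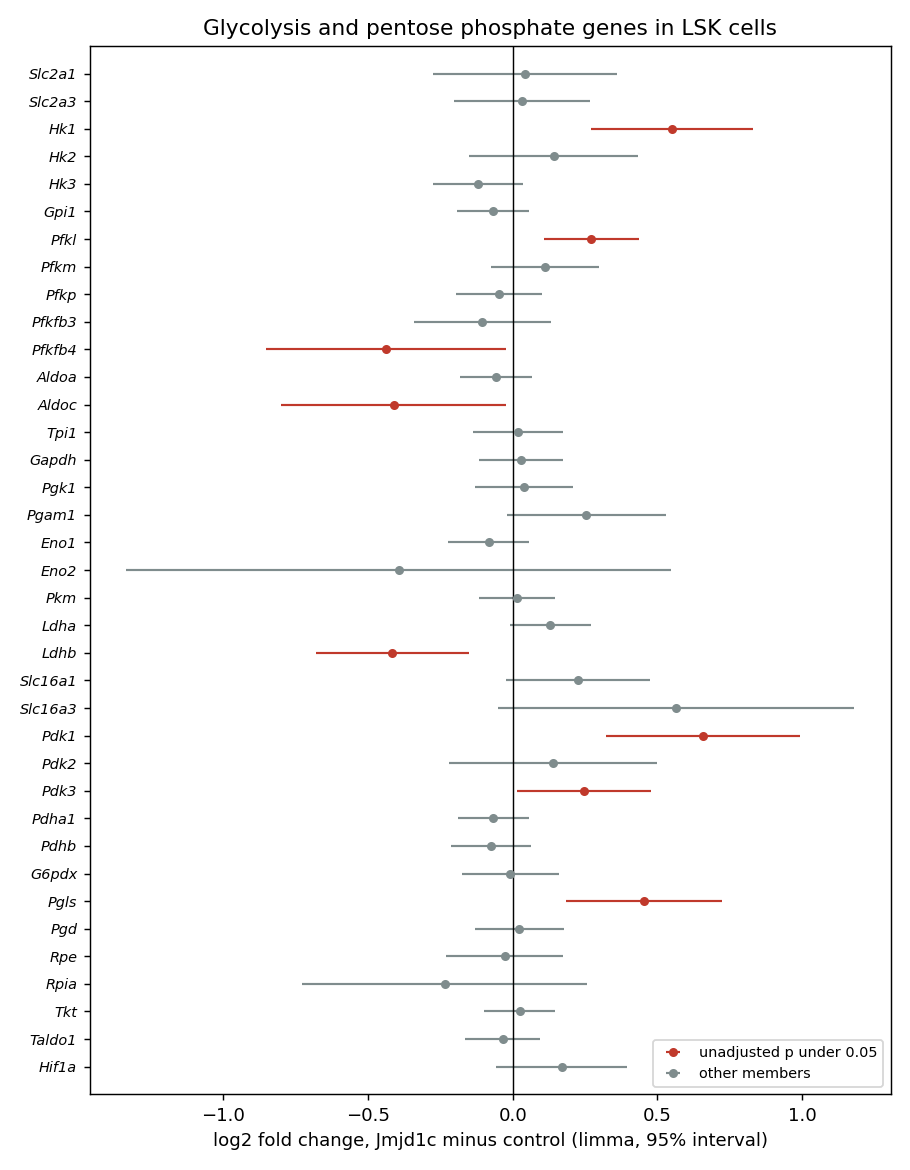
Log2 fold change of each of the 37 members in pathway order, Jmjd1c minus control, with its 95% interval from limma (x axis, log2 scale); red marks the 8 members with an unadjusted p under 0.05. Most intervals are narrow and cross 0, Hk1 at 0.55 and Pdk1 at 0.66 lie farthest to the right among the red ones, and the widest interval belongs to Eno2.

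Levels within the pathway spanned a wide range. Per kilobase of exon and averaged over the 7 libraries, the highest members were Pkm (pyruvate kinase) at 1675 normalized read counts per kilobase, Aldoa (aldolase A) at 1607, Ldha (lactate dehydrogenase A) at 1397 and Taldo1 (transaldolase) at 1186. More than 98% of tested genes were lower than each of them on this scale. Gpi1 (glucose 6-phosphate isomerase, 565), Tpi1 (triosephosphate isomerase, 485), Eno1 (enolase 1, 477), Pdha1 (an E1 subunit of pyruvate dehydrogenase, 462), Tkt (transketolase, 441) and Gapdh (432) followed, on the same per-kilobase scale. At the low end were Eno2, the neuronal enolase, at 2.95 per kilobase, Rpia (ribose 5-phosphate isomerase) at 7.01 and Slc16a3 (the lactate exporter MCT4) at 7.51. Length was taken as the union of annotated exons, and 95% identical copies elsewhere can lower a count: Gapdh shared at least 500 bases at that identity with 73 other annotated genes, Eno1 with 3, and Pgk1 and Ldha with 2 each, so the level of Gapdh in particular is uncertain.

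**Figure D2:**
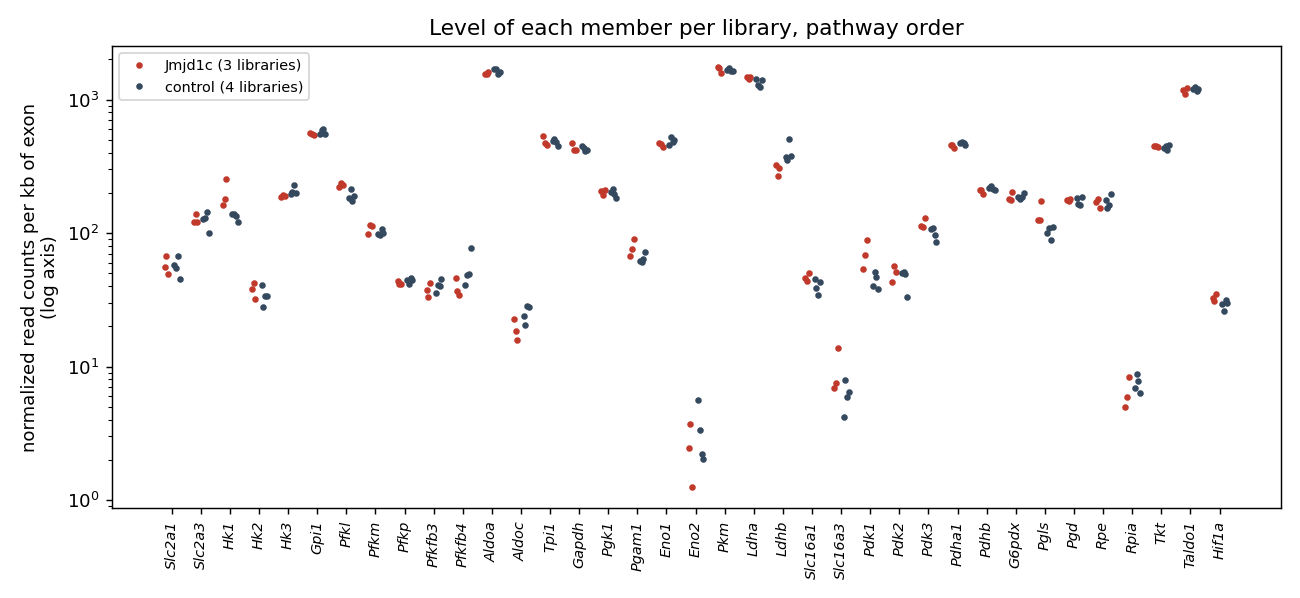
Normalized read counts per kilobase of exon (log axis) of each member in pathway order, 1 point per library, Jmjd1c left of control within each gene. The spread between genes, from 2.95 for Eno2 to 1675 for Pkm on average, is far wider than that between libraries or groups.

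Glucose entry did not separate the groups. Slc2a3, the high-affinity glucose transporter GLUT3, was the higher of the measured pair, at 874, 1008 and 878 normalized read counts in Jmjd1c and 926, 933, 1034 and 728 in control libraries. Its log2 fold change was 0.03, with a 95% interval from -0.20 to 0.27 in limma. Slc2a1, which encodes GLUT1, averaged 202 ± 31.5 in Jmjd1c (SD, n = 3) and 196 ± 32.2 in control libraries (SD, n = 4), with a log2 fold change of 0.04 and an interval from -0.28 to 0.36. The sign of both turned under other settings. On the per-kilobase scale Slc2a3 made up 67.4% to 71.0% of the pair in Jmjd1c and 68.0% to 70.3% in control libraries.

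Hexokinases trap glucose in the cell by phosphorylating it, and the paralogs had fold changes on both sides of 0. Hk1 (ENSMUSG00000037012; mm10 chromosome 10, 62268855 to 62379908, minus strand), the form found in most tissues and bound to the outer mitochondrial membrane, had 1374, 1528 and 2169 normalized read counts in Jmjd1c libraries and 1180, 1184, 1135 and 1034 in control libraries. All 3 Jmjd1c libraries were above all 4 control libraries, and Jmjd1c 3 was far above the rest. The log2 fold change was 0.55 ± 0.13, with a 95% interval from 0.27 to 0.83 (limma, adjusted p = 0.0538), and it was 0.36 without Jmjd1c 3 (limma, unadjusted p = 0.00106, adjusted p = 0.12). DESeq2 called it with an adjusted p of 0.000579. Hk2, the insulin-responsive and growth-linked form, had 227, 252 and 193 in Jmjd1c and 242, 168, 203 and 201 in control libraries, with fully overlapping groups and a log2 fold change of 0.14. Hk3 (chromosome 13, 55005985 to 55021385, minus strand), typical of granulocytes and monocytes, had 682, 714 and 702 in Jmjd1c and 722, 752, 842 and 729 in control libraries. The groups did not overlap, by a narrow gap, and the log2 fold change was -0.12 ± 0.07 (limma, adjusted p = 0.377). With transcript GC content and length corrected for, it was -0.26 (limma, unadjusted p = 0.00579, adjusted p = 0.119). Exons of Hk1 overlap those of Hk1os, and exons of Hk3 those of Unc5a, on the other strand, so reads there may be shared. The 8 neutrophil markers, of which 0 were called, summed to 6861 to 9894 in Jmjd1c and 9889 to 13312 in control libraries, and their part in the Hk3 values was not tested.

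The 300-base windows around the annotated starts of Hk1 are shown because Hk1 had 1 of the 2 lowest p-values of the list, together with Pdk1, and because RefSeq lists 2 starts for Hk1 that a count per gene cannot tell apart. Capitals mark the letters ACGTG or GCGTG on either strand, the core that HIF binds. Each window runs from 250 bases before to 50 bases after the RefSeq start (GRCm38.p6). The upstream start of Hk1 (chr10:62379859-62380158, minus strand) held 0 matches, the downstream start (chr10:62340372-62340671, minus strand) 5, and the start of Pdk1 that matches the gene's 5′ end (chr2:71872974-71873273, plus strand) 2; a second Pdk1 window, not printed, held 0.
Hk1, upstream start: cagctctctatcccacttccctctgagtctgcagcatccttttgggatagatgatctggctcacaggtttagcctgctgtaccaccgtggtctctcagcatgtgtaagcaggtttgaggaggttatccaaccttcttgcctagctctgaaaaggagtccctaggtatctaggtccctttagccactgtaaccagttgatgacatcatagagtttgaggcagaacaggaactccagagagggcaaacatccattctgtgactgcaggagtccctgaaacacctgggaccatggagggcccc
Hk1, downstream start: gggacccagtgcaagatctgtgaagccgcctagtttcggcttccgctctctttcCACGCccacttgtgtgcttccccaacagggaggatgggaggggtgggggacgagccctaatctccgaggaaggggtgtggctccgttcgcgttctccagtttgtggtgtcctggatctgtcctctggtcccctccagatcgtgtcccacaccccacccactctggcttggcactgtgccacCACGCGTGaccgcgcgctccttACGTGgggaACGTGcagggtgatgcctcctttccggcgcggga
Pdk1: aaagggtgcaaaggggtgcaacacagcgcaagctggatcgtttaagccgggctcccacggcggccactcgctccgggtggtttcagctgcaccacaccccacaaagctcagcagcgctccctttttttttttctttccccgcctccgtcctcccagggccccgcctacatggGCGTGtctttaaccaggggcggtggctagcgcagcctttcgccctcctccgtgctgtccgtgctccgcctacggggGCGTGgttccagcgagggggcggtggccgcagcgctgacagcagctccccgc
RefSeq windows were available for 36 of the 37 members, and 32 of the 36 genes had at least 1 match in any of their windows, or 88.9%, against 46.7% of all 27025 genes with a window. Over windows, 78.4% of the members' 51 windows held a match, against 43.8% of all 32851. Both backgrounds take every gene with a RefSeq window, expressed here or not, and not only the tested genes. The members, all of them tested, were therefore not compared with like genes. The members' windows were richer in G and C, with a median of 61.0% against 52.7%, and the letters themselves are rich in G and C. A match is a run of letters and not a measured binding site.

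On the per-kilobase scale Hk1 made up 41.9%, 43.1% and 53.3% of hexokinase signal in Jmjd1c libraries and 36.9%, 37.4%, 33.6% and 34.4% in control libraries. Hk3 made up 48.2%, 46.7% and 39.97% in Jmjd1c and 52.3%, 55.0%, 57.8% and 56.1% in control libraries. Neither share overlapped between groups, and without Jmjd1c 3 the Jmjd1c mean of the Hk1 share was 42.5%. Both shares follow largely from Hk1 and Hk3, whose own groups did not overlap, so they are no separate results. For comparison, 16.8% of all tested genes, taken singly, had groups without overlap. The length used decides which paralog leads: with the longest coding transcript in place of the union of exons, the Hk1 share was 55.9% to 66.7% in Jmjd1c and 47.1% to 51.2% in control libraries. Summed hexokinase signal was 426 ± 47.3 per kilobase in Jmjd1c (SD, n = 3) and 374 ± 17.5 in control libraries (SD, n = 4), and those groups overlapped.

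Phosphofructokinase commits sugar to glycolysis. Pfkl (chromosome 10, 77986947 to 78010083, minus strand), the liver-type subunit and the most abundant of the family, had 1474, 1571 and 1529 normalized read counts in Jmjd1c and 1218, 1421, 1156 and 1267 in control libraries. All Jmjd1c libraries lay above the control libraries, with control 2 closest. In limma the log2 fold change of Pfkl was 0.27 ± 0.07 (adjusted p = 0.0835; DESeq2, adjusted p = 0.0331), with 0.23 to 0.33 on leaving out each library. With transcript GC content and length corrected for, it was 0.10 (limma, adjusted p = 0.513). The muscle-type Pfkm and the platelet-type Pfkp overlapped between groups, at log2 fold changes of 0.11 and -0.05. Exons of Pfkp overlap those of Pitrm1 on the other strand, so its reads may be shared. Those of Pfkm overlap exons of Gm26513 on the same strand and of Senp1 on the other. Summed per kilobase, the 3 subunit genes stood at 363, 393 and 384 in Jmjd1c and 326, 351, 326 and 334 in control libraries, without overlap. Of all single tested genes, 16.8% had groups that did not overlap. Pfkl, most of this sum, was itself without overlap, so the sum is no separate result. Of the family sums, only this one and that of the lactate carriers were without overlap. Pfkl contributed 59.7% to 60.9% in Jmjd1c and 53.2% to 60.7% in control libraries.

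The PFKFB enzymes set the level of fructose 2,6-bisphosphate, which activates phosphofructokinase. Pfkfb4 had 224, 180 and 167 normalized read counts in Jmjd1c and 198, 237, 242 and 380 in control libraries. The groups overlapped and control 4 was highest. The log2 fold change was -0.44 ± 0.19 (limma, unadjusted p = 0.0407, adjusted p = 0.232), and -0.25 without control 4, the library with the high macrophage sum. Pfkfb3 had 250 to 321 in Jmjd1c and 270 to 341 in control libraries, with a log2 fold change of -0.10 and an interval from -0.34 to 0.13.

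From isomerase to pyruvate kinase the abundant enzymes were among the most tightly measured members. Gpi1, Aldoa, Tpi1, Gapdh, Pgk1 (phosphoglycerate kinase), Eno1 and Pkm had log2 fold changes from -0.08 to 0.04, with 95% intervals that reached no farther than -0.22 and 0.21. With GC content and length corrected for, 3 of them were lower by more: -0.20 for Gpi1, -0.19 for Aldoa and -0.19 for Eno1 (limma, unadjusted p = 0.00937, 0.00713 and 0.0167). The other 4 were then between -0.07 and 0.11. Pkm, the highest of them, had 8775, 8594 and 7921 normalized read counts in Jmjd1c and 8343, 8664, 8193 and 8151 in control libraries. Jmjd1c 3 held the lowest and Jmjd1c 1 the highest Pkm value of all 7. Aldoa had 4492, 4558 and 4664 in Jmjd1c and 4902, 4902, 4513 and 4719 in control libraries, so that the groups overlapped through control 3. Eno1 had 2554, 2517 and 2374 in Jmjd1c and 2440, 2824, 2600 and 2662 in control libraries, with overlapping groups. Values per gene do not separate the M1 and M2 splice forms of pyruvate kinase. Exons of Gpi1, Aldoa, Tpi1 and Gapdh overlap those of other genes on the other strand, so reads there may be shared. Those of Pkm overlap exons of Gm49759 on the same strand, where reads can be lost or shared. Pgam1 (phosphoglycerate mutase) had 134, 150 and 177 in Jmjd1c and 123, 121, 126 and 143 in control libraries, with a log2 fold change of 0.25 ± 0.13 (limma, unadjusted p = 0.0665) that was 0.15 without Jmjd1c 3. Aldoc, the brain-type aldolase, had 73.6, 59.8 and 51.7 in Jmjd1c and 77.6, 66.4, 93.2 and 91.8 in control libraries. Its log2 fold change was -0.41 ± 0.18 (limma, unadjusted p = 0.0401, adjusted p = 0.231) and -0.29 without Jmjd1c 3. Aldoc held only 0.979% to 1.44% of aldolase signal per kilobase in Jmjd1c and 1.19% to 1.81% in control libraries. Eno2 had 5.87 to 17.5 in Jmjd1c and 9.62 to 26.4 in control libraries, too few for a firm value, with a 95% interval of the log2 fold change from -1.33 to 0.55.

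At the end of glycolysis the lactate dehydrogenase subunits had fold changes of opposite sign. Ldhb (ENSMUSG00000030246; chromosome 6, 142490249 to 142507957, minus strand), the heart-type subunit, favoured where lactate is turned to pyruvate, had 505, 418 and 486 normalized read counts in Jmjd1c and 582, 558, 796 and 589 in control libraries. All 3 Jmjd1c libraries were below all 4 control libraries, and control 3 stood well above the other controls. The log2 fold change was -0.42 ± 0.12, with an interval from -0.68 to -0.15 (limma, adjusted p = 0.0955; DESeq2, adjusted p = 0.0233), and -0.30 without control 3. It was -0.44 without Jmjd1c 3 and -0.35 with GC content and length corrected for. Ldha (chromosome 7, 46841475 to 46855627, plus strand), the muscle-type subunit that favours lactate formation, had 4909, 4752 and 4916 in Jmjd1c and 4714, 4262, 4140 and 4674 in control libraries. These groups also did not overlap, though by less than the spread among controls, and the log2 fold change was 0.13 ± 0.06 (limma, unadjusted p = 0.0646, adjusted p = 0.287).

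The share of Ldhb in lactate dehydrogenase signal per kilobase was 17.8%, 15.7% and 17.3% in Jmjd1c and 20.7%, 21.6%, 28.8% and 21.002% in control libraries. Every Jmjd1c library was below every control library, control 3 lying apart from the rest. That order follows from Ldha and Ldhb, whose groups did not overlap and lay in opposite directions, so the share is no separate result. The means were 16.9% ± 1.12 in Jmjd1c (SD, n = 3) and 23.03% ± 3.89 in control libraries (SD, n = 4). The summed signal of both genes was 1767 ± 56.5 per kilobase in Jmjd1c (SD, n = 3) and 1746 ± 70.6 in control libraries (SD, n = 4). The start windows of the pair are shown because their fold changes had opposite signs. The first of 2 Ldha windows (chr7:46845554-46845853, plus strand) held 7 matches to ACGTG or GCGTG on either strand. Among them were 2 copies of CACGTG, a palindrome that contains the core on both strands and is found in 8.09% of all genes with a window. The second Ldha window, not printed, held 2 matches and no CACGTG. The Ldhb window (chr6:142507908-142508207, minus strand) held 1 match and no CACGTG. Whether the number of matches goes with the direction of a fold change was not tested. Capitals mark the matches as before.
Ldha: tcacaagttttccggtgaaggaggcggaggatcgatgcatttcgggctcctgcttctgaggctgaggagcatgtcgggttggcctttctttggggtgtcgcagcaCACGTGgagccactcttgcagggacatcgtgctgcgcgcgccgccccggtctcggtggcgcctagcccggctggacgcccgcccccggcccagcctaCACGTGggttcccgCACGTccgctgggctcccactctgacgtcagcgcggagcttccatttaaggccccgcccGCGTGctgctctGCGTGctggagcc
Ldhb: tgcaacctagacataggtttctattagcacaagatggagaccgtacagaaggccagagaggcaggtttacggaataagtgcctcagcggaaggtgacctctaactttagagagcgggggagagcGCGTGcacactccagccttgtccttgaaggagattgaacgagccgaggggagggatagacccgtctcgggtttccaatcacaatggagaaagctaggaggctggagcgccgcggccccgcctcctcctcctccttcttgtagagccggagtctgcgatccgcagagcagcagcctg
Each lactate carrier overlapped between groups, while their sum did not, by a narrow gap. Slc16a1, which encodes MCT1, had 204, 195 and 223 normalized read counts in Jmjd1c and 199, 170, 153 and 189 in control libraries, with a log2 fold change of 0.23 ± 0.11 (limma, unadjusted p = 0.0706) that was 0.32 with GC content and length corrected for (unadjusted p = 0.0164). Slc16a3 had 36.4, 40.2 and 72.8 in Jmjd1c and 22.4, 42.2, 31.5 and 34.1 in control libraries, and its log2 fold change of 0.56 was 0.26 without Jmjd1c 3. Summed per kilobase, the pair stood at 53.0, 51.6 and 64.1 in Jmjd1c and 49.2, 46.4, 40.4 and 49.1 in control libraries. Most of that sum was Slc16a1, at 78.6% to 87.1% in Jmjd1c and 82.9% to 91.4% in control libraries. Among all single tested genes, the groups did not overlap for 16.8%.

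**Figure D3:**
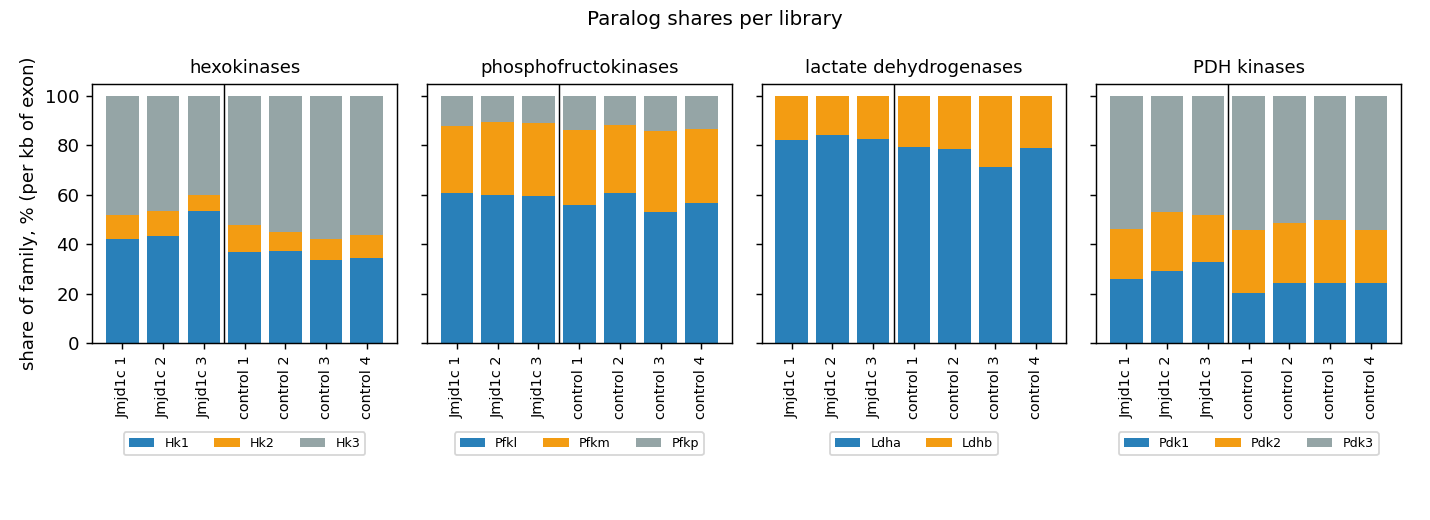
Share of each paralog in its family (percent of the summed normalized read counts per kilobase of exon), 1 bar per library, with the 3 Jmjd1c libraries left of the line and the 4 control libraries right of it. Hk1 takes 41.9% to 53.3% in Jmjd1c and 33.6% to 37.4% in control libraries, and Ldhb 15.7% to 17.8% in Jmjd1c and 20.7% to 28.8% in control libraries. The gap in the Ldhb share follows from the values of Ldha and Ldhb.

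Pyruvate dehydrogenase kinases phosphorylate the E1 alpha subunit and so keep pyruvate out of the mitochondrial cycle. Pdk1 (ENSMUSG00000006494; chromosome 2, 71873224 to 71903858, plus strand), a known HIF-1 target, had 419, 536 and 686 normalized read counts in Jmjd1c and 310, 399, 362 and 296 in control libraries. The Jmjd1c libraries were all above the control libraries, spread widely, and Jmjd1c 3 was highest. The log2 fold change was 0.66 ± 0.15, with a 95% interval from 0.32 to 0.99 (limma, adjusted p = 0.0538; DESeq2, adjusted p = 0.00107). It was 0.48 without Jmjd1c 3 (limma, unadjusted p = 0.00518, adjusted p = 0.176) and 0.66 with GC content and length corrected for (limma, adjusted p = 0.0671).

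Pdk3, an X-linked member, had 289, 283 and 330 in Jmjd1c and 273, 278, 247 and 218 in control libraries. The groups did not overlap, with a narrow gap, and the log2 fold change of 0.25 ± 0.11 (limma, unadjusted p = 0.0386, adjusted p = 0.227) was 0.18 without Jmjd1c 3, the library with Xist, and 0.41 with GC content and length corrected for (unadjusted p = 0.00637, adjusted p = 0.125). Pdk2 had 135, 179 and 162 in Jmjd1c and 158, 162, 156 and 105 in control libraries, with overlapping groups. On the per-kilobase scale Pdk1 made up 25.7%, 29.2% and 32.9% of the kinases in Jmjd1c and 20.3%, 24.4%, 24.2% and 24.3% in control libraries, without overlap. The values of Pdk1 did not overlap either, so its share is no separate result. The genes of the E1 enzyme that these kinases act on were tightly measured: Pdha1, also X-linked, had a log2 fold change of -0.07 with an interval from -0.19 to 0.06, and Pdhb one of -0.07 with an interval from -0.21 to 0.06. Both were lowest in Jmjd1c 3, and both groups overlapped.

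**Figure D4:**
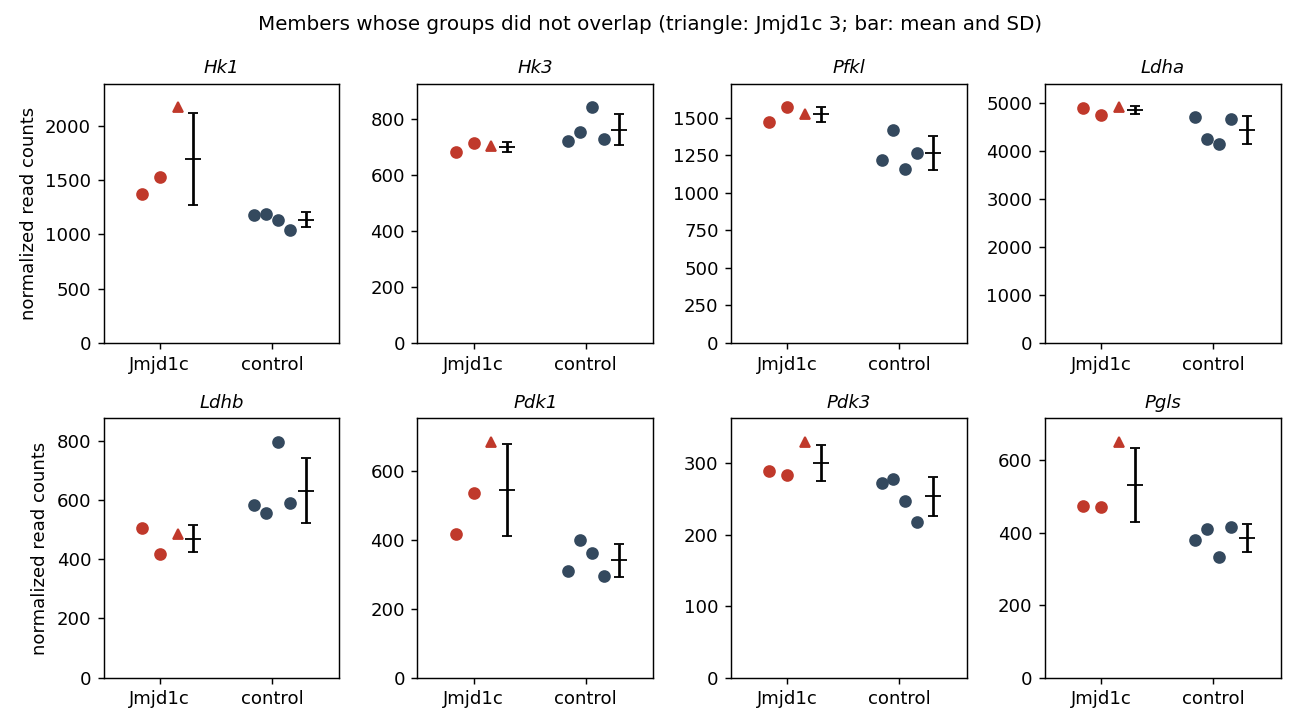
Normalized read counts per library for the 8 members whose groups did not overlap, Jmjd1c left of control, with mean and SD as bars (n = 3 and n = 4) and axes from 0; the triangle is Jmjd1c 3. Hk1 reaches 2169, Pdk1 686 and Pgls 650 in Jmjd1c 3, while the gaps for Hk3, Ldha and Pdk3 are narrow.

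In the oxidative pentose phosphate branch, which makes NADPH, 1 enzyme of 3 had groups that did not overlap, against 16.8% of all tested genes. A count among 3 genes is too small to set apart from that share. Pgls (6-phosphogluconolactonase; chromosome 8, 71592176 to 71601092, plus strand) had 473, 471 and 650 normalized read counts in Jmjd1c and 379, 412, 332 and 416 in control libraries. Jmjd1c 3 was highest and the other Jmjd1c libraries were close together just above the controls. The log2 fold change was 0.45 ± 0.12 (limma, adjusted p = 0.0798; DESeq2, adjusted p = 0.0167), and 0.30 without Jmjd1c 3. Its transcripts are 65.4% G and C, the highest of the members, and with GC content and length corrected for, the log2 fold change was 0.10 (limma, adjusted p = 0.662). Exons of Fam129c overlap those of Pgls on the same strand, so reads there can be lost or shared. G6pdx, the X-linked glucose 6-phosphate dehydrogenase that limits the branch, had 554, 545 and 628 in Jmjd1c and 569, 554, 572 and 618 in control libraries, with a log2 fold change of -0.01 and an interval from -0.17 to 0.16. Pgd, the next dehydrogenase, had 1113 to 1166 in Jmjd1c and 1043 to 1208 in control libraries, with a log2 fold change of 0.02 and an interval from -0.13 to 0.18. The sign of both turned under other settings.

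The non-oxidative branch links ribose 5-phosphate back to glycolysis and none of its genes separated the groups. Tkt had 3277, 3299 and 3255 in Jmjd1c and 3192, 3284, 3057 and 3366 in control libraries, and Taldo1 had 2580, 2383 and 2659 in Jmjd1c and 2603, 2683, 2520 and 2591 in control libraries. Their 95% intervals of the log2 fold change, from -0.10 to 0.15 and from -0.16 to 0.10, were among the narrowest of the members. Rpe (ribulose 5-phosphate epimerase) stood at 478 to 558 in Jmjd1c and 483 to 606 in control libraries, and its exons overlap those of Kansl1l on the other strand. Rpia had 26.5 to 44.6 in Jmjd1c and 34.1 to 47.1 in control libraries, with an interval from -0.73 to 0.26.

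Hif1a, the oxygen-regulated subunit of HIF-1, is controlled mainly through the stability of its protein, which RNA does not show. Its RNA had 192, 181 and 205 normalized read counts in Jmjd1c and 173, 153, 185 and 175 in control libraries, with overlapping groups. It differed by 0.17 ± 0.10 on the log2 scale (limma, unadjusted p = 0.128, adjusted p = 0.385), and by 0.27 with GC content and length corrected for (unadjusted p = 0.0228, adjusted p = 0.1995). Exons of Hif1a overlap those of Gm49321 on the same strand and of Gm15283 on the other, so reads there can be lost or shared. Of 22 further genes of the HIF pathway, 21 were found by symbol and 17 tested, and 0 passed in limma, edgeR or DESeq2 (4, 4 and 3 at an unadjusted p under 0.05). By limma 4 of the 17, or 23.5%, had an unadjusted p under 0.05, 2 in each direction, near the 19.7% of all tested genes. P4ha1, a collagen prolyl hydroxylase induced by HIF-1, had 477, 590 and 480 in Jmjd1c and 374, 461, 400 and 417 in control libraries (log2 fold change 0.32 ± 0.10, limma, adjusted p = 0.119). Ndrg1, another induced gene, had 424, 394 and 335 in Jmjd1c and 360, 302, 329 and 275 in control libraries (0.28 ± 0.11, limma, adjusted p = 0.199). Bnip3l, a mitophagy receptor, had 811, 721 and 760 in Jmjd1c and 868, 914, 885 and 861 in control libraries (-0.21 ± 0.07, limma, adjusted p = 0.119), and Kdm3a, a relative of Jmjd1c, a log2 fold change, Jmjd1c minus control, of -0.18 ± 0.08 (limma, adjusted p = 0.217). Bnip3l and Kdm3a are HIF-induced as well. These 4 genes were named for their p-values, the smallest of the list. Of the 17 tested genes 11 had a positive and 6 a negative log2 fold change, and HIF activity was not tested.

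A second list held 44 other enzymes and carriers of glucose metabolism, of which 32 were tested. In limma and in edgeR 0 passed, and DESeq2 called Adpgk. By limma 3 of the 32, or 9.38%, had an unadjusted p under 0.05, all higher in Jmjd1c, against 19.7% of all tested genes (11.9% higher and 7.84% lower). Adpgk, the ADP-dependent glucokinase, had 53.8, 84.5 and 156 normalized read counts in Jmjd1c and 44.8, 45.9, 47.8 and 44.6 in control libraries. The controls were nearly level and the Jmjd1c libraries widely spread, and the log2 fold change of 0.95 ± 0.28 was 0.55 without Jmjd1c 3 (limma, adjusted p = 0.102 with all libraries; DESeq2, adjusted p = 0.0124). Dlat, the E2 subunit of pyruvate dehydrogenase, had 233, 276 and 290 in Jmjd1c and 196, 226, 204 and 168 in control libraries, without overlap (0.43 ± 0.12, limma, adjusted p = 0.0885). Gpd2, the mitochondrial glycerol 3-phosphate dehydrogenase, had 724, 808 and 788 in Jmjd1c and 719, 634, 690 and 590 in control libraries (0.23 ± 0.08, limma, adjusted p = 0.153). Pdpr, the regulatory subunit of pyruvate dehydrogenase phosphatase, had 121, 122 and 137 in Jmjd1c and 118, 104, 95.6 and 105 in control libraries (0.26 ± 0.12, limma, adjusted p = 0.269).

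Single libraries weighed on the members unevenly. Jmjd1c 3 held the highest value of the 7 libraries for 10 of the 37 members and the lowest for 9. Control 1 held the highest for 1 and the lowest for 1. Among the 8 members with an unadjusted p under 0.05, the log2 fold changes kept their sign on leaving out each library, which non-overlapping groups fix in advance for Hk1, Pfkl, Ldhb, Pdk1, Pdk3 and Pgls. Without Jmjd1c 1 Hk1 was 0.69 and Pdk1 0.83, and both then passed (limma, adjusted p = 0.0156 and 0.0117), in a fit that called 631 genes, or 4.96%. Without any 1 of the other libraries 0 members passed, while the share of all genes called was 1.66% on leaving out control 4, 0.567% on leaving out control 1, 0.0708% on leaving out Jmjd1c 3 and 0.0236% on leaving out Jmjd1c 2, control 2 or control 3. With GC content and length corrected for, 12 members, or 32.4%, had an unadjusted p under 0.05, 5 higher and 7 lower, against 18% of all genes. Hk3, Gpi1, Aldoa and Eno1, lower, and Slc16a1 and Hif1a, higher, were the 6 that had not done so before, and Pfkl and Pgls were the 2 that no longer did. None of the 12 passed after adjustment, the smallest adjusted p in limma being 0.0671 for Pdk1.

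**Figure D5:**
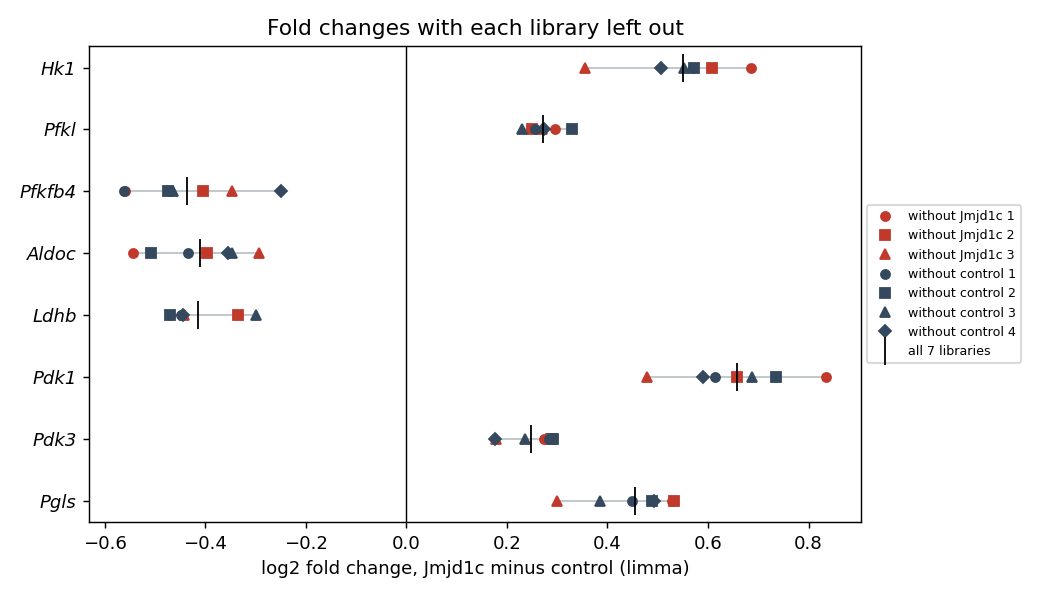
Log2 fold change (Jmjd1c minus control, x axis) of the 8 members with an unadjusted p under 0.05, with all 7 libraries (black bar) and with each library left out (points). Hk1 ranges from 0.36 to 0.69 and Pdk1 from 0.48 to 0.83, lowest without Jmjd1c 3, and Pfkfb4 reaches -0.25 without control 4.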

How the data were processed

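RNA was extracted with Trizol and made into libraries with an ultra-low-input SMARTer kit, per the labels' protocols. Per the submitters' processing notes, Trim Galore 0.2.8, STAR, HTSeq 0.6.1p1, DESeq 1.18.0 and mm10 were used; the sources used here give no annotation release, strand setting or filter. Values in the authors' deposited table are a signal: each library's are whole multiples of 1 step, the form that size-factor scaling gives counts. Division by the step gave whole reads for 100% of values above 0, within 0.01 of a read. Symbols matched 37607 of 39179 IDs. Lengths, GC content and positions came from GENCODE M21 (GRCm38), copies from BLAST 2.17.0, start windows from RefSeq.

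limma 3.58.1 (R 4.3.3, intensity trend) tested log2(value + 1), Jmjd1c against control, without covariates, for the 12813 genes with at least 10 in at least 3 libraries. P-values were adjusted by Benjamini-Hochberg, with a threshold of 0.05; fold changes understate low genes. Errors are SDs beside means and standard errors beside fold changes. The recovered reads were also tested with DESeq2 1.42.0 and with edgeR 4.0.16 (TMM, quasi-likelihood). The GC and length correction fitted natural splines, 5 degrees of freedom each, to each library's deviations from the gene means. The limma step was tested on simulated counts. Members, lists and tests were chosen with earlier results of these data known. Full values are given for members with an unadjusted p under 0.05, non-overlapping groups or the highest level of their family; from the other lists, the 4 smallest p-values where none passed.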

Additional observations from a re-analysis of the deposited data

Results flagged for a closer look

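Among the 46 genes checked, 2 had a control library far from the other 3 by Dixon's criterion, under which about 1 in 20 groups is picked out by chance. Ldhb had 796 normalized read counts in control 3, against 558 to 589 in the other control libraries and 418 to 505 in the Jmjd1c libraries. Pdk2 had 105 in control 4, against 156 to 162 in the other control libraries and 135 to 179 in the Jmjd1c libraries.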

How the results depend on the processing

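The count of members past the threshold was 0 in limma. It was 2 (Hk1 and Pdk1) without a filter on low values and with a minimum of 50, 1 (Hk1) with array weights, 5 in DESeq2 and 5 at an adjusted p threshold of 0.1, and 0 to 2 on leaving out each library. For the other enzymes it was 1 in DESeq2 and 1 at the threshold of 0.1, and 0 to 2 on leaving out each library; for the HIF pathway it was 0 in all settings. Over all genes the count of 231 was 0 without the intensity trend (2213 at an unadjusted p under 0.05), 590 in DESeq2, 83 with GC content and length corrected for, 716 at the threshold of 0.1 and 3 to 631 on leaving out each library. Jmjd1c had -0.89 without the trend (limma, adjusted p = 0.117). 

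With the replicate number as a block 14 genes were called, 7 higher and 7 lower, and 0 members. Deviations of same-numbered libraries had correlations of -0.15, -0.0021 and 0.017, against -0.17 to 0.32 for unlike numbers. So few libraries cannot show whether the numbers pair the samples. Signs of 12 members turned. Their log2 fold changes were near 0 with all 7 libraries, except for Pdk2 at 0.14, which turned without control 4. With the block and with replicates 1 to 3 only, the log2 fold change was -0.058 for Slc2a1, -0.069 for Slc2a3, -0.013 for Tpi1, -0.00093 for Pgk1, -0.0075 for Pdk2, 0.025 for G6pdx and 0.035 for Rpe. With GC content and length corrected for it was -0.0604 for Slc2a1, -0.066 for Gapdh, -0.068 for Pkm, 0.0021 for G6pdx, -0.062 for Pgd, 0.13 for Rpe and -0.12 for Tkt, and with array weights 0.014 for Rpe. On leaving out each library the ranges were -0.075 to 0.14 for Slc2a1, -0.069 to 0.099 for Slc2a3, -0.045 to 0.063 for Tpi1, -0.032 to 0.0603 for Gapdh, -0.00093 to 0.076 for Pgk1, -0.015 to 0.059 for Pkm, -0.0075 to 0.25 for Pdk2, -0.072 to 0.0303 for G6pdx, -0.013 to 0.058 for Pgd, -0.076 to 0.036 for Rpe, -0.0013 to 0.045 for Tkt and -0.067 to 0.012 for Taldo1. The differences in the Hk1, Ldhb and Pdk1 shares kept their sign with the other length, chosen after seeing the data. A length scales a gene alike in all libraries. For Ldhb, in a family of 2 genes without overlap, that sign was therefore fixed in advance. The cause of these shifts was not tested. With 3 and 4 libraries, the 95% interval reached past 1.5-fold for 9 of the 37 members. Eno2, Rpia and Slc16a3, with low values, were among them. The rest were Hk1, Pfkfb4, Aldoc, Ldhb, Pdk1 and Pgls, each with an unadjusted p under 0.05 in limma.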

Other observations

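Several isoforms typical of other tissues were at or near 0 in these cells. Of the 44 further enzymes 12 did not reach the minimum for testing, and the largest value in any library was 9.60 normalized read counts for the muscle mutase Pgam2 and 15.2 for Pdk4, the kinase induced by fasting. Fbp2, the muscle fructose bisphosphatase, and Tktl2 had no read in any library.

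Hk1 lies 4.72 Mb from Jmjd1c on chromosome 10 and Pfkl 10.7 Mb from it. Of the 102 tested genes within 10 Mb of Jmjd1c, 1 was called in limma, or 0.98%, against 1.8% of all tested genes, and 15.7% had an unadjusted p under 0.05, against 19.7%. Pfkl lies outside that window. On the whole of chromosome 10, 20 of 604 tested genes were called, or 3.31%, and 23.01% had an unadjusted p under 0.05.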
